A study of Mus musculus with 8 samples.

Results

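The genes described here are a set of 10 that mark nerve cells in general or build their cytoskeleton: the neurofilament genes Nefl, Nefm and Nefh, the microtubule genes Tubb3, Map2 and Stmn2, the vesicle fusion genes Snap25 and Syt1, the glycolytic enzyme gene Eno2 and the surface antigen gene Thy1. They were chosen by exact match of the gene symbol, with no use of their values, and are 10 of the 25815 genes in the table of read counts. All 10 were among the 16810 genes that passed the filter on low counts, with between 743 and 43539 reads per gene and library. The study sequenced poly(A)+ RNA from total brain of mice that carry the D50A point mutation in Cstf2 (5 animals, D50A 1 to 5) and of wild-type littermates (3 animals, WT 1 to 3). Cstf2 encodes a subunit of the cleavage stimulation factor, which binds pre-mRNA downstream of the poly(A) site and acts in 3' end formation, and the comparison asks how brain RNA differs when that protein carries the mutation. Both groups were 50 days old and untreated and shared 1 colony with a C57BL/6NCrl background, reached by backcrossing over 4 generations. The labels give no sex, litter or batch.

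Neurofilaments are the intermediate filaments of nerve cells. They are copolymers of a light, a medium and a heavy chain (Nefl, Nefm and Nefh), fill the axon, set its calibre, and are most abundant in neurons with long, thick, myelinated axons. Pan-neuronal markers are expressed by most neurons whatever transmitter they use, so in whole-brain RNA they stand for the neuronal part of the tissue. In such bulk RNA fewer cells of a type and less RNA per cell cannot be told apart, and the cell type that each read came from was not measured.

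Transcript ends are shown for 5 of the genes because Cstf2 acts in 3' end formation and because these genes carry the patterns described further on: the neurofilament triplet, whose Nefl and Nefm overlap each other, and the pair of Stmn2 and Map2. Each line holds the last 30 bases of the gene's annotated transcript (GENCODE M21, mm10), 5' to 3' on the transcript's strand. Capitals mark the AATAAA nearest to the end, the canonical poly(A) signal hexamer. ATTAAA, its commonest variant, was searched for where AATAAA was not found.
Nefl: ataaaatattgaaaaaaaatctaaattcaa
Nefm: aaataaaagcatcgtgggtaAATAAAggga
Nefh: gcaataaaaccaagtgcttctgaAATAAAa
Map2: aatagtatatgcagaaaatgacctgaattc
Stmn2: tgAATAAAgaattggagttctgtgaactaa
The marked hexamer began 10 bases from the end in Nefm, 7 in Nefh and 28 in Stmn2. Nefm and Nefh each hold another AATAAA further from the end, which is not marked. Neither AATAAA nor ATTAAA lay in this window of Nefl or Map2. The Nefl window opens with ATAAA, which lacks only the first base of AATAAA, and bases before the window were not searched. Over 21797 coding genes, 49.9% had AATAAA in the last 30 bases and a further 11.2% had ATTAAA without it. A match describes the letters of the annotated end. Use of one 3' end or another was not measured by counts per gene.

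Facts of the series that bear on every value are few. The libraries held 13675945 to 24802272 counts. TMM scaling factors, which correct for a library's composition, were 1.012 to 1.051 in 7 libraries and 0.791 in D50A 3. Mitochondrially encoded genes took 11.9% of the counts of D50A 3 and 4.08 to 5.14% elsewhere. Over 12456 genes, the 5th to 95th percentile of the log2 ratio to the WT mean ran from -2.64 to 1.91 in D50A 3, against -0.46 to 0.28 in D50A 1. D50A 3 therefore stands apart, and values are given with and without it. Cerebellum genes split the libraries in another way, with D50A 1 beside WT. The summed level of 12 cerebellum genes was 293.7 CPM (counts divided by the TMM-scaled library size and put on a per-1000000 scale) there, 295 to 307 CPM in WT, and 1077 to 1478 CPM in the other D50A libraries. Gabra6, the granule cell receptor subunit on that list, was at 0 in at least 1 library of each group. Cbln3 of that list was at 0.623 CPM in D50A 1 and at 0.818 to 1.37 CPM in WT. In the other D50A libraries it was at 118 to 239 CPM. DESeq2 called 8 of the 12 genes higher, beside 0.243% of all genes in either direction. Apart from D50A 1, the level of cerebellum genes thus went with genotype, and the part of cerebellum content in other values was not tested.

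None of the 10 genes was called between D50A and WT, and 5 had a positive and 5 a negative log2 fold change. By edgeR's quasi-likelihood test with Benjamini-Hochberg adjustment over all genes tested, their adjusted p ran from 0.837 to 0.952, and 0% of all genes were called. No member had an unadjusted p under 0.05 in edgeR, a level reached by 2.5% of all genes. DESeq2 also called no member, while it called 0.243% of genes. Limma-voom with sample quality weights, which lets a deviant library count for less, called 1 member lower and none higher, against 1.2% of all genes lower and 1.87% higher. Without D50A 1 and D50A 3 edgeR called the same member, Map2, as lower, with a background of 3.06% lower and 3.36% higher. The 5 D50A values all lay below the 3 WT values for 2 members, Map2 and Syt1, a separation seen in 4.24% of all genes tested, and above them for none, a separation seen in 3.22%. These p-values measure only the spread between these libraries, each of which the labels name as a separate animal.

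**Figure D1:**
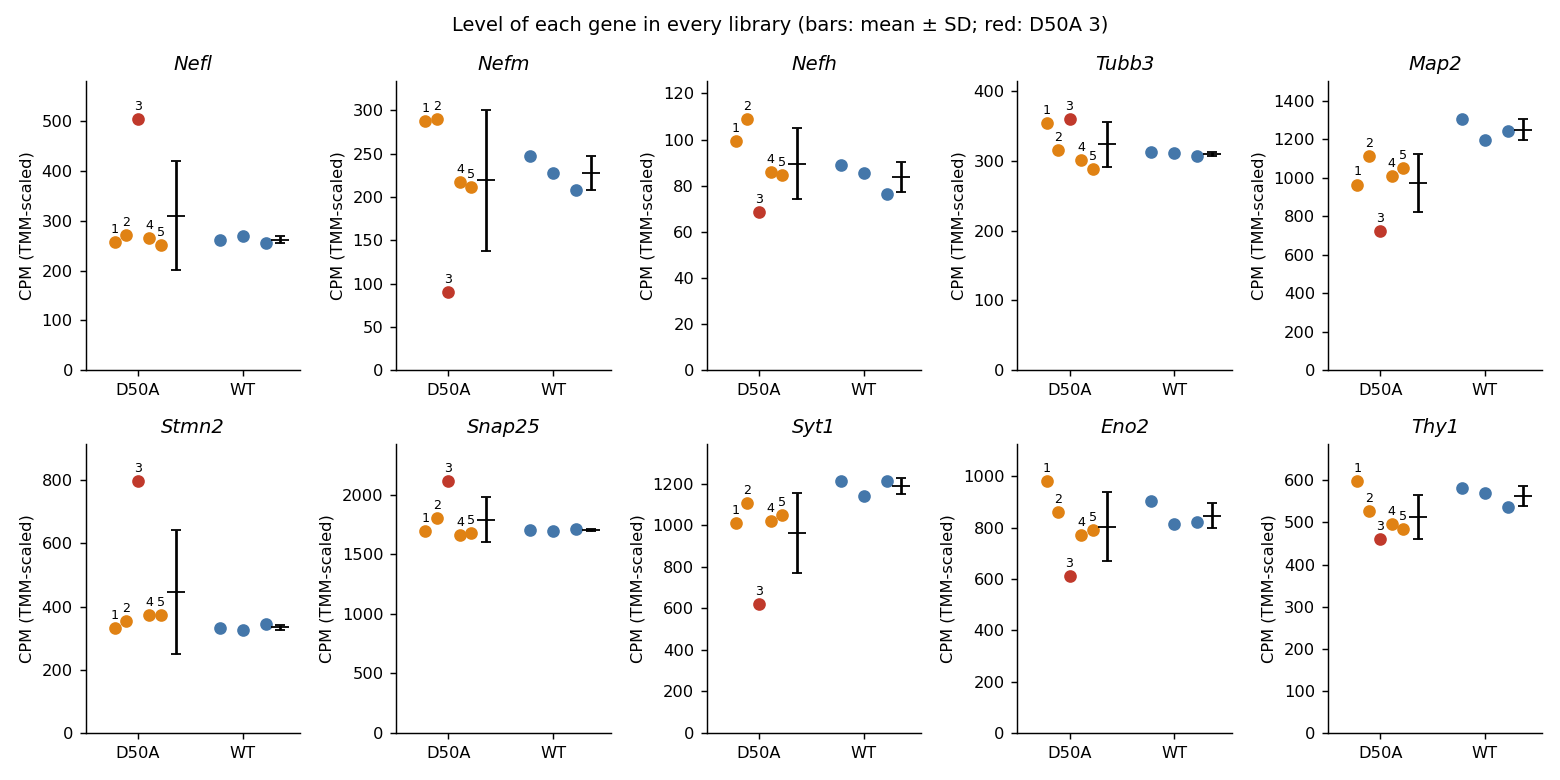
CPM of each of the 10 genes (vertical axis, from 0) in the D50A and WT libraries. Points are single libraries, numbered for D50A, with D50A 3 in red, and the bars are mean ± SD (n = 5 and n = 3). D50A 3 is the highest library for Nefl, Stmn2, Snap25 and Tubb3 and the lowest for the other 6 genes; scaled by total counts, Snap25 and Tubb3 in D50A 3 lie below the WT libraries.

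Among the neurofilament genes, Nefl (ENSMUSG00000022055, mm10 chromosome 14, 68083863 to 68089095, plus strand) encodes the light chain, which the other chains need to assemble. Its level was 258, 271, 505, 265 and 251 CPM in D50A 1 to 5 and 262, 268 and 256 CPM in WT 1 to 3. The groups overlapped, and D50A 3 alone was outside the narrow band of the other 7 libraries. The means were 309.9 ± 109 CPM (SD, n = 5) and 262 ± 6.15 CPM (SD, n = 3), a log2 fold change of 0.24 (SE 0.26). Without D50A 3 the log2 fold change was 0.01.

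Nefm (ENSMUSG00000022054, chromosome 14, 68082590 to 68124846, minus strand) encodes the medium chain, whose tail projects from the filament. It stood at 288, 290.3, 90.3, 217 and 211 CPM in D50A 1 to 5 and at 247, 228 and 207.5 CPM in WT 1 to 3. Here D50A 3 was the lowest library, while D50A 1 and D50A 2 were above every WT library, so the D50A values lay on both sides of the WT range. The log2 fold change was -0.05 (SE 0.34), and 0.15 without D50A 3, which turns its sign.

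The gene of the heavy chain, Nefh (ENSMUSG00000020396, chromosome 11, 4938754 to 4948064, minus strand), carries the long phosphorylated tail of mature axonal filaments. Its CPM in D50A 1 to 5 was 99.5, 109, 68.7, 85.9 and 84.5, and in WT 1 to 3 it was 89.1, 85.4 and 76.4. As for Nefm, D50A 1 and D50A 2 were highest, D50A 3 was lowest, and the other 2 D50A libraries were inside the WT range. The log2 fold change was 0.10 (SE 0.17), and 0.19 without D50A 3.

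Added together, the triplet varied less over the D50A libraries than Nefl, Nefm or Nefh alone, with a coefficient of variation of 9.26% against 35.2%, 37.1% and 17.2%. For Nefl this held only with D50A 3 included: without it the sum varied by 9.78% and Nefl by 3.32%, and in WT by 5.26% and 2.34%. The summed level was 645, 670.1, 664, 568 and 546.5 CPM in D50A 1 to 5 and 598.5, 581.5 and 539.9 CPM in WT 1 to 3. D50A 3, the extreme library for each chain alone, was inside the range of the other D50A libraries for this TMM-scaled sum. By total counts its sum was the lowest of all libraries, with Nefl at 399, Nefm at 71.4 and Nefh at 54.3 CPM. The makeup of the triplet, which does not depend on scaling, differed too. Per transcript length, the Nefl share of the triplet was 40.7 to 48.2% in 7 libraries and 77.1% in D50A 3. Nefm took 13.99% there and 39.5 to 46.0% elsewhere, and Nefh took 8.89% there and 12.2 to 14.03% elsewhere.

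**Figure D2:**
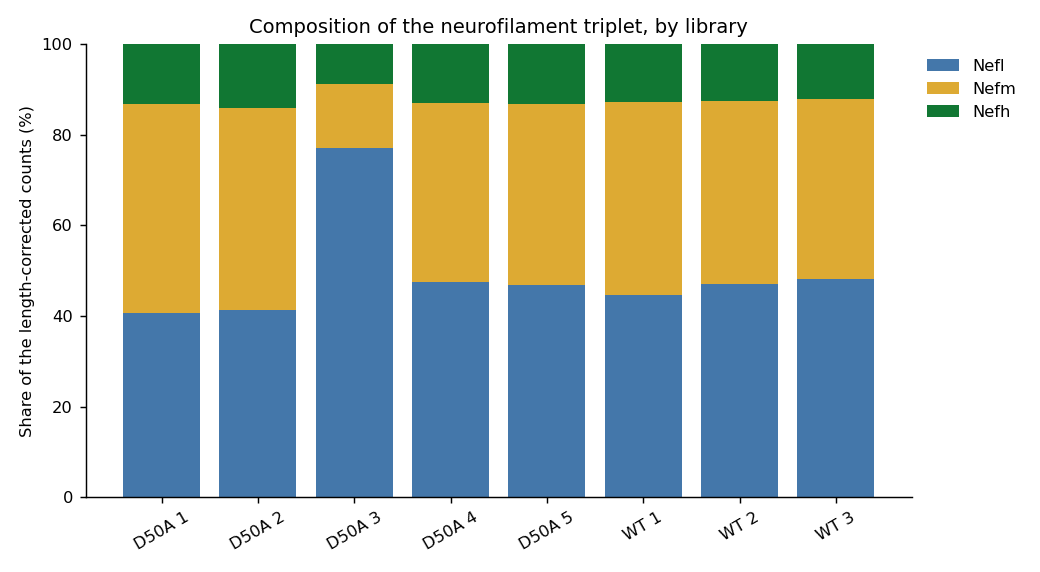
Share (%) of Nefl, Nefm and Nefh in the summed counts of the triplet after division by transcript length, 1 bar per library. D50A 3 has a Nefl share of 77.1%, and no other library exceeds 48.2%.

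Ratios of raw counts within a library do not depend on scaling between libraries and show the same. The ratio of Nefl to Nefm counts was 0.896, 0.933, 5.59, 1.22 and 1.19 in D50A 1 to 5 and 1.06, 1.18 and 1.23 in WT 1 to 3. D50A 3 was 4.83 times the WT mean, and D50A 1 and D50A 2 were the lowest of all 8. The ratio of Nefh to Nefm was 0.346, 0.375, 0.761, 0.396 and 0.401 in D50A 1 to 5 and 0.360, 0.375 and 0.368 in WT 1 to 3. Leaving D50A 3 aside, Nefm and Nefh thus kept a narrow ratio of 0.346 to 0.401, and their log2 CPM had a Pearson r of 0.94 over the 7 libraries, given as a description. Nefl was less closely tied to either, with r of 0.42 to Nefm and 0.48 to Nefh over the same 7 libraries. One limit touches the ratios with Nefl and Nefm. The 2 genes lie on opposite strands, and 1108 exonic bases are shared, which is 32.8% of the Nefl exons and 19.2% of the Nefm exons. No source used here says whether the counting used strand, so reads from that stretch cannot be told apart.

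Besides the triplet, neurons make other intermediate filament proteins. Ina, which encodes alpha-internexin, a partner of the triplet in central axons, stood at 55.3 CPM in D50A 3, at 146 to 179 CPM in the other D50A libraries and at 152 to 158 CPM in WT. Its order over the libraries was like that of Nefm, with D50A 3 lowest and D50A 1 and D50A 2 highest. Prph, which encodes peripherin of peripheral and cranial nerve neurons, was scarce. Its level of 2.92, 3.90, 6.11, 2.54 and 3.02 CPM in D50A 1 to 5 was above the 2.41, 2.28 and 1.84 CPM of WT 1 to 3 in every library. The log2 fold change of Prph was 0.74 (SE 0.31, unadjusted p = 0.0426, adjusted p = 0.837 by edgeR), so it was not called. Of the 5 genes on this list, the triplet included, none was called by edgeR, DESeq2 or limma-voom, and the median log2 fold change was 0.10, beside -0.01 over all genes tested.

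Genes of neurons rich in neurofilaments were given a list of their own, with 14 genes, some of them shared with the vesicle and brainstem lists and none at 0 in any library. The summed level of the list was 1430, 1687, 1396, 1604 and 1600 CPM in D50A 1 to 5 and 1391, 1367 and 1322 CPM in WT 1 to 3, so every D50A library was above every WT library. In D50A 3 that sum was carried by Pvalb: without Pvalb it was 630 CPM there, 1373 to 1550 CPM in the other D50A libraries and 1268 to 1338 CPM in WT. The mean log2 CPM over the list was 5.20 in D50A 3, under the 5.21 to 5.30 of WT. None of the 14 was called by edgeR or DESeq2. Limma-voom called 5 of 14 higher and none lower, beside 1.87% of all genes higher and 1.2% lower. EdgeR without D50A 1 and D50A 3 also called 5 of 14 higher and none lower, beside 3.36% higher and 3.06% lower. Pvalb, the calcium buffer of fast-spiking interneurons and Purkinje cells, stood at 56.9 CPM in D50A 1, at 766 CPM in D50A 3, at 137 to 177 CPM in the other 3 D50A libraries and at 53.5, 64.5 and 54.0 CPM in WT 1 to 3. Like the cerebellum genes, Pvalb was inside or near the WT range in D50A 1 and above it in the other 4 D50A libraries. Spp1 (osteopontin) was at 19.8, 19.5, 31.3, 15.3 and 16.3 CPM in D50A 1 to 5 and at 11.7, 12.5 and 10.1 CPM in WT 1 to 3. Spp1 was higher in every D50A library than in any WT library and was called higher by limma-voom (adjusted p = 0.0148) but not by edgeR (adjusted p = 0.837). Sncg, which encodes gamma-synuclein, had a log2 fold change of 0.79 (SE 0.44), and the groups overlapped, with a lowest D50A level of 7.15 CPM and a highest WT level of 7.24 CPM.

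Brainstem genes are given beside Nefm and Nefh because their levels differed between libraries too. The 5 of 12 brainstem and spinal genes that passed the filter summed to 20.99, 38.9, 22.8, 22.1 and 28.8 CPM in D50A 1 to 5 and to 16.7, 19.8 and 18.5 CPM in WT 1 to 3. Hoxa2 and Hoxb2 of that list were at 0 in all WT libraries, and no gene of it was at 0 in all D50A libraries. Of the 12 genes, 6 were at 0 in at least 1 D50A library and 7 in at least 1 WT library. D50A 2 was highest for this sum and for Nefh and Nefm. D50A 1, second for both neurofilament genes, was lowest of the D50A libraries for the sum but not for the mean log2 CPM. That mean was 2.07 in D50A 1, and in D50A it was highest in D50A 2 (2.73) and lowest in D50A 3 (1.59). In WT it was 1.46 to 1.75. Slc6a5 of the list was at 4.52, 17.04, 1.295, 5.03 and 7.91 CPM in D50A 1 to 5. Its level was 0.577, 1.32 and 0.653 CPM in WT 1 to 3. DESeq2 (adjusted p = 0.00964) and limma-voom (adjusted p = 0.0123) called Slc6a5 higher, and edgeR (adjusted p = 0.837) did not. The part of brainstem content in the neurofilament values was not tested.

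Turning to the microtubule genes, Map2 (ENSMUSG00000015222, chromosome 1, 66175273 to 66442583, plus strand) encodes the microtubule-associated protein of dendrites. It stood at 965, 1113, 722, 1009 and 1052 CPM in D50A 1 to 5 and at 1307, 1198 and 1244 CPM in WT 1 to 3. Every D50A library was below every WT library, and the gap did not depend on D50A 3, the lowest. Means of 972 ± 150.1 CPM (SD, n = 5) and 1250 ± 54.9 CPM (SD, n = 3) gave a log2 fold change of -0.36 (SE 0.17, unadjusted p = 0.0692, adjusted p = 0.837 by edgeR). Map2 was lower at an adjusted p of 0.038 by limma-voom (log2 fold change -0.25) and 0.021 by edgeR without D50A 1 and D50A 3 (-0.22). Leaving out D50A 3 alone gave a log2 fold change of -0.26 (SE 0.06) with an edgeR adjusted p of 0.23. D50A 1 was the second lowest of all libraries for Map2. The part of cerebellum content in the Map2 values was not tested. The exons of Map2 share 124 bases, 0.754% of their length, with the antisense gene Gm10558.

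The growth-associated microtubule destabiliser Stmn2 (ENSMUSG00000027500, chromosome 3, 8509360 to 8561606, plus strand), also called SCG10, is found in axon tips and the Golgi. It was at 333, 353.5, 796, 373 and 372.5 CPM in D50A 1 to 5 and at 331, 326.5 and 343 CPM in WT 1 to 3. The groups overlapped through D50A 1 alone, which lay between WT 1 and WT 3, and D50A 3 was far above all other libraries. The log2 fold change was 0.42 (SE 0.31), 0.11 without D50A 3 and 0.15 without D50A 1 and D50A 3.

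Tubb3 (ENSMUSG00000062380, chromosome 8, 123411424 to 123422015, plus strand) encodes the neuron-specific beta-III tubulin. Its CPM was 353, 315.5, 360.2, 302 and 288 in D50A 1 to 5 and 312, 311 and 307 in WT 1 to 3. The D50A libraries spread to both sides of a WT range that was only a few CPM wide, and the log2 fold change was 0.06 (SE 0.14), or 0.03 without D50A 3. The sign of Tubb3 turned with limma-voom (-0.03) and without D50A 1 and D50A 3 (-0.02), and in D50A 3 it turned with the scaling: by total counts Tubb3 was at 285 CPM there and at 314 to 318 CPM in WT.

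Within the microtubule genes the balance of Stmn2 and Tubb3 to Map2 separated the groups. The count ratio of Stmn2 to Map2 was 0.345, 0.318, 1.10, 0.370 and 0.354 in D50A 1 to 5 and 0.254, 0.273 and 0.276 in WT 1 to 3. That of Tubb3 to Map2 was 0.366, 0.283, 0.499, 0.299 and 0.273 in D50A 1 to 5 and 0.239, 0.260 and 0.247 in WT 1 to 3. Every D50A value was above every WT value in both ratios, also with D50A 3 left out. Both ratios hold the low Map2 in their denominator, so they are not separate evidence, and no test was made of them.

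Of 29 other genes for microtubules and the axonal cytoskeleton, none at 0 in any library, 8 had a positive and 21 a negative log2 fold change, with a median of -0.23 beside -0.01 for all genes. The median was -0.07 without D50A 3. EdgeR and DESeq2 called none of the 29. Limma-voom called 1 lower, Kif5a, beside 1.2% of all genes. EdgeR without D50A 1 and D50A 3 called 7 lower and none higher, beside 3.06% and 3.36% of all genes. Kif5a, the neuronal kinesin heavy chain that carries neurofilaments along axons, stood at 3128, 2711, 1652, 2683 and 2412 CPM in D50A 1 to 5 and at 3138, 3164 and 3082 CPM in WT 1 to 3. D50A 1 reached into the WT range, and the adjusted p of Kif5a was 0.837 by edgeR and 0.0414 by limma-voom. Kif5c, its close relative, ran from 617 to 956 CPM over the D50A libraries and from 1003 to 1041 CPM over WT (log2 fold change -0.24, SE 0.18). Stmn3, a relative of Stmn2, was at 1841 CPM in D50A 3, while no other library exceeded 537 CPM (log2 fold change 0.76, SE 0.51).

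Among the synaptic vesicle genes, Snap25 (ENSMUSG00000027273, chromosome 2, 136713453 to 136782428, plus strand) encodes the membrane-anchored SNARE protein that joins vesicle and plasma membrane. It stood at 1695, 1803, 2111, 1658 and 1678 CPM in D50A 1 to 5 and at 1704, 1697 and 1711 CPM in WT 1 to 3. WT 1 to 3 were almost equal, with a coefficient of variation of 0.388%, and the D50A libraries lay on both sides of them. The log2 fold change was 0.07 (SE 0.15), and 0.01 without D50A 3. In D50A 3 the direction of Snap25 depended on the scaling, since by total counts it was at 1668 CPM there and at 1723 to 1750 CPM in WT.

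Syt1 (ENSMUSG00000035864, chromosome 10, 108497650 to 109010982, minus strand) encodes synaptotagmin-1, the calcium sensor of fast transmitter release. Its level was 1010, 1106, 621, 1019 and 1049 CPM in D50A 1 to 5 and 1210, 1142 and 1210 CPM in WT 1 to 3. As for Map2, no D50A library reached the lowest WT library. Means of 961 ± 193.5 CPM (SD, n = 5) and 1187 ± 38.9 CPM (SD, n = 3) gave a log2 fold change of -0.30 (SE 0.21), or -0.17 without D50A 3. Neither edgeR with all libraries (adjusted p = 0.837) nor limma-voom (adjusted p = 0.12) called Syt1.

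Syt1 and Map2 went together and Snap25 did not go with them. The count ratio of Syt1 to Map2 was 1.05, 0.994, 0.861, 1.01 and 0.998 in D50A 1 to 5 and 0.926, 0.954 and 0.972 in WT 1 to 3, with the 4 D50A libraries other than D50A 3 just above WT. Over the 7 libraries without D50A 3 the log2 CPM of Syt1 and Map2 had a Pearson r of 0.98, given as a description of libraries that also differ by group. The count ratio of Snap25 to Syt1 was 1.68, 1.63, 3.40, 1.63 and 1.599 in D50A 1 to 5 and 1.41, 1.49 and 1.41 in WT 1 to 3. No D50A value overlapped a WT value in that ratio, of which the low Syt1 is the denominator.

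Of the other synaptic vesicle genes, 31 symbols with 32 tested entries and none at 0, 7 had a positive and 25 a negative log2 fold change, and the median was -0.21 (-0.06 without D50A 3). EdgeR and DESeq2 called none. Limma-voom called 2 of 32 higher and none lower, beside 1.87% and 1.2% of all genes. EdgeR without D50A 1 and D50A 3 called 3 higher and 1 lower, beside 3.36% and 3.06% of all genes. Vamp1, a vesicle SNARE abundant in brainstem and spinal cord, ranged over 194 to 258.5 CPM in the D50A libraries, with a WT range of 184 to 208 CPM. It was among the genes called higher by limma-voom (adjusted p = 0.0309) and not by edgeR (adjusted p = 0.837). Syt4 was at 325 CPM in D50A 3, while no other library exceeded 194 CPM. The entry of Pclo that the naming rule picked, 1 of 2 under that symbol, had a log2 fold change of -0.19 (SE 0.14).

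Eno2 (ENSMUSG00000004267, chromosome 6, 124760053 to 124769673, minus strand) encodes neuron-specific (gamma) enolase. It stood at 980.5, 861, 612, 772 and 791 CPM in D50A 1 to 5 and at 903, 815 and 822 CPM in WT 1 to 3. D50A 1 was above and D50A 3, 4 and 5 were below the WT range, so the groups overlapped, and the log2 fold change was -0.08 (SE 0.18), or 0.02 without D50A 3. Eno1, the enolase that most other cells use, was at 516 to 678 CPM in the D50A libraries, with a WT range of 552.5 to 590.5 CPM. The count ratio of Eno2 to Eno1 was 1.45, 1.504, 0.978, 1.45 and 1.53 in D50A 1 to 5 and 1.53, 1.48 and 1.41 in WT 1 to 3. Outside D50A 3 the ratio stayed within the WT spread or close to it. Of the remaining enolases, the muscle gene Eno3 had a log2 fold change of 0.07 (SE 0.15) and Eno4 one of -0.40 (SE 0.23), and neither was called.

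Thy1 (ENSMUSG00000032011, chromosome 9, 44043384 to 44048579, plus strand) encodes a GPI-anchored surface glycoprotein of projection neurons and T cells. Its CPM was 597, 527, 461, 496 and 485 in D50A 1 to 5 and 582, 569.9 and 536 in WT 1 to 3. D50A 1 was the highest of all 8 libraries and the other 4 D50A libraries were below the lowest WT library. The log2 fold change was -0.13 (SE 0.15), and -0.09 without D50A 3.

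Among 26 other pan-neuronal markers, none at 0, 8 had a positive and 18 a negative log2 fold change, with a median of -0.10 (-0.04 without D50A 3), and edgeR and DESeq2 called none. Limma-voom called 1 higher and 1 lower, beside 1.87% and 1.2% of all genes. EdgeR without D50A 1 and D50A 3 called 2 higher and 3 lower, beside 3.36% and 3.06% of all genes. Nsg1, a neuron-enriched endosomal protein gene, was at 255, 277, 548, 299.7 and 312 CPM in D50A 1 to 5 and at 243, 243 and 252 CPM in WT 1 to 3, above every WT library throughout. Tmem130 was at 90.3 to 196 CPM in the D50A libraries, with a WT range of 182 to 200.1 CPM (adjusted p = 0.0499 by limma-voom and 0.837 by edgeR). Scg5, the chaperone of a prohormone convertase, was at 641 CPM in D50A 3 and at 170 to 222 CPM elsewhere.

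**Figure D3:**
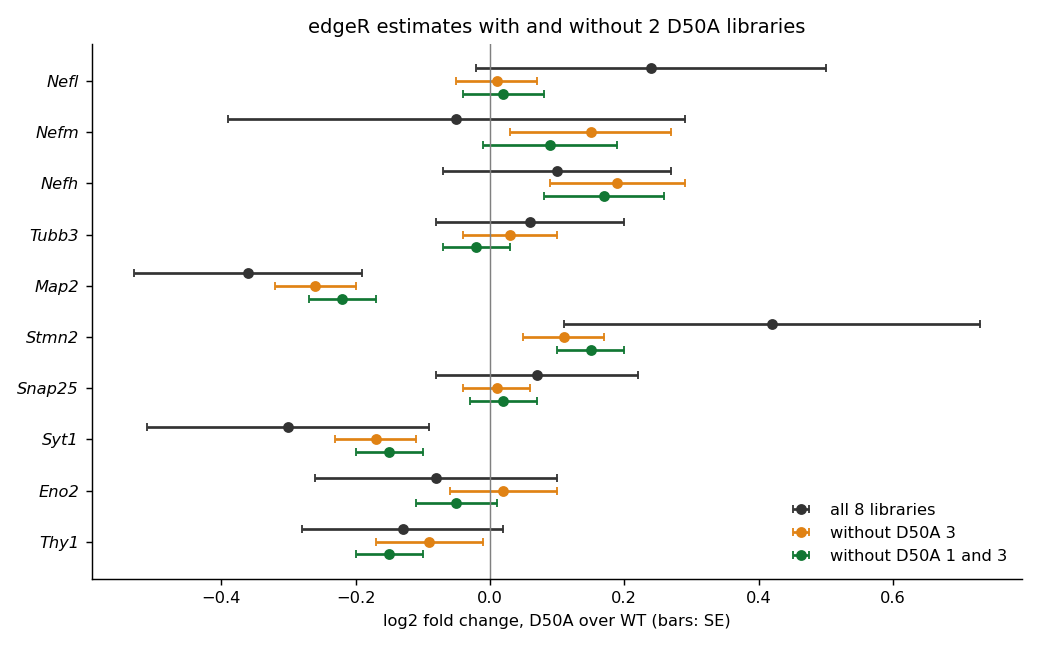
Log2 fold change of D50A over WT from edgeR (horizontal axis; bars are SE) for each gene, with all 8 libraries, without D50A 3, and without D50A 1 and D50A 3. Map2 stays at -0.36, -0.26 and -0.22, Syt1 stays below 0, and Nefm, Tubb3 and Eno2 change sign.

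How evenly the genes were measured differed between the groups. Across the 10 genes the coefficient of variation was 0.388 to 8.74% in WT and 9.86 to 44.1% in D50A. Without D50A 3 it was 3.32 to 17.2% in D50A, highest for Nefm and lowest for Nefl. D50A 3 was the lowest of all 8 libraries for 6 genes (Syt1, Map2, Nefm, Nefh, Eno2 and Thy1) and the highest for 4 (Nefl, Stmn2, Snap25 and Tubb3). With total-count scaling Nefl and Stmn2 remained above WT in D50A 3, at 399 CPM against 262 to 275 and at 629 CPM against 334 to 351, while Snap25 and Tubb3 did not. The scaling moved the median log2 ratio of all genes in D50A 3 from -0.13 (TMM) to -0.50 (total counts). Summed over the 10 genes, 0.502% of all counts of D50A 3 came from them, against 0.651 to 0.703% in the other 7 libraries. That lowest place depended on the scaling too. After TMM scaling the 10 genes of D50A 3 added up to 6347 CPM, more than D50A 4 (6197 CPM) and D50A 5 (6262 CPM). Every WT library, with sums from 6641 to 6947 CPM, still exceeded D50A 3.

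Markers of other cell types and regions also stood apart in D50A 3. The 12 oligodendrocyte markers, none at 0, summed to 22368 CPM in D50A 3, to 10972 to 12113 CPM in the other D50A libraries and to 10041 to 10866 CPM in WT, and Mobp, a myelin gene, was at 4300 CPM there and 1300 to 1751 CPM elsewhere. The 12 microglia markers, none at 0, summed to 872 CPM in D50A 3 and 335 to 402 CPM elsewhere. The 14 genes of cortex and hippocampus, none at 0, summed to 649 CPM in D50A 3, 1063 to 1216 CPM in the other D50A libraries and 1180 to 1263 CPM in WT. Astrocyte marker sums ran from 4769 to 4959 CPM in the D50A libraries, with a WT range of 5089 to 5250 CPM. The sum did not stand for the single markers, of which 7 had a positive and 5 a negative log2 fold change. Their mean log2 CPM was 7.56 to 7.77 in D50A, highest in D50A 3, and 7.56 to 7.60 in WT. Endothelial marker sums ran from 344 to 426 CPM in D50A, with 363.5 to 408 CPM in WT. The part of all these markers in the values of the neuronal genes was not tested.

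Transcript length went with the deviation of D50A 3 from the WT mean. In that library genes of 1500 to 2500 bases had a median log2 ratio of 0.38, those of 3000 to 3700 bases -0.26 and those of 4500 to 7000 bases -0.90. From the shortest to the longest of these groups the median fell far less in the other D50A libraries. It went from 0.04 to -0.05 in D50A 1, 0.00 to -0.03 in D50A 2, 0.01 to -0.09 in D50A 4 and 0.00 to -0.06 in D50A 5. In D50A 3 the members lay as follows. Map2 (6258 bases, log2 ratio -0.79) and Syt1 (4820 bases, -0.93) lay near the median of the longest of these groups. Snap25 (2116 bases, 0.31) and Tubb3 (1868 bases, 0.22) lay near that of the shortest. Thy1 (1735 bases, -0.29) and Eno2 (2795 bases, -0.47) were below the medians of their length, 0.38 and -0.04, and Nefh (3994 bases, -0.28) was above its median of -0.50. Each was within the 5th to 95th percentile of genes of its length (-1.60 to 1.79 for Thy1, -1.99 to 1.51 for Eno2 and -2.67 to 1.13 for Nefh). Stmn2 (2073 bases, 1.25) and Nefl (3380 bases, 0.94) were above the median of their length and Nefm (3334 bases, -1.33) was below it, though within the 5th to 95th percentile of all genes of that length (-1.60 to 1.79 for Stmn2, -2.39 to 1.38 for Nefl and Nefm). Nefl and Nefm, nearly equal in length, were thus on opposite sides.

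**Figure D4:**
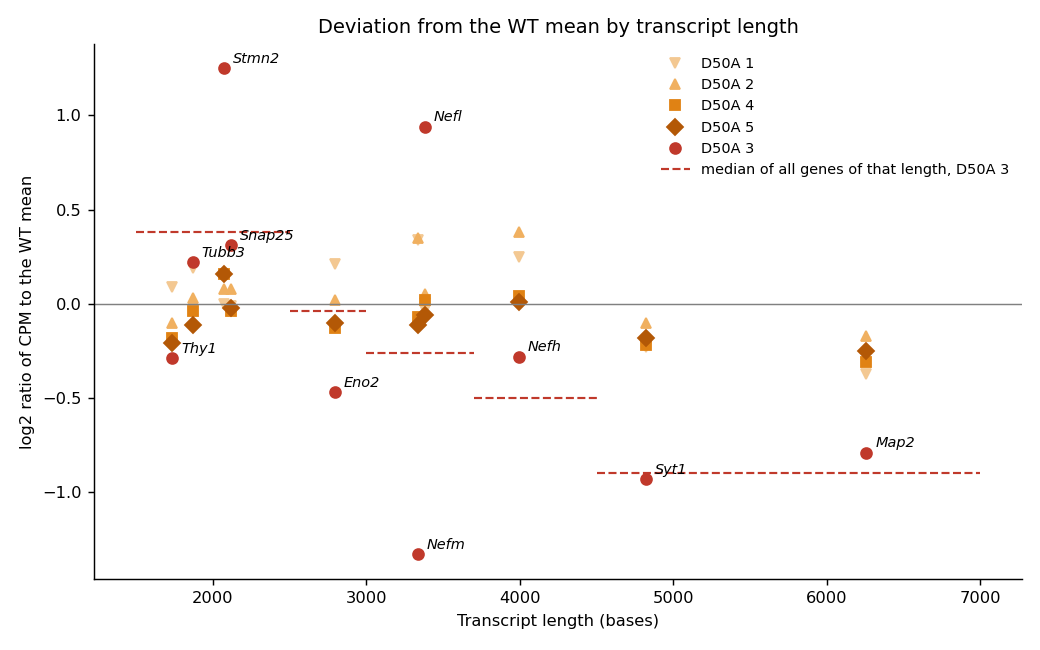
Log2 ratio of CPM to the WT mean (vertical axis) against transcript length in bases (horizontal axis) for the 10 genes in each D50A library; dashed lines are medians of all genes of that length in D50A 3. Long genes such as Syt1 and Map2 lie low in D50A 3, and Nefl and Nefm of almost equal length lie at 0.94 and -1.33. With total-count scaling the D50A 3 values of Snap25 and Tubb3 fall below 0.

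Levels can be ranked between genes after division by transcript length, with a limit. The length was that of a single annotated transcript, the one with the longest coding sequence, while counts were per gene. All exons of Map2 together span 16449 bases against 6258 in that transcript, and those of Snap25 6791 against 2116. For Tubb3 both lengths are 1868. The order below holds for the chosen transcripts and can change with another choice. In WT, Snap25 was highest at 805 ± 3.13 CPM per kb (SD, n = 3), followed by Thy1 at 324 ± 13.6 and Eno2 at 303 ± 17.5, whose ranges overlapped. Syt1 (246 ± 8.08 CPM per kb) and Map2 (199.7 ± 8.77) came next. Tubb3 (165.9 ± 1.46) and Stmn2 (161 ± 4.15 CPM per kb) overlapped. The triplet closed the order with Nefl at 77.6 ± 1.82, Nefm at 68.2 ± 5.96 and Nefh at 20.9 ± 1.64 CPM per kb, so Nefh was the scarcest and its range did not meet that of Nefm. In D50A 3, Stmn2 (384 CPM per kb) stood above Syt1 (129) and Map2 (115), an inversion of the WT order.

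**Figure D5:**
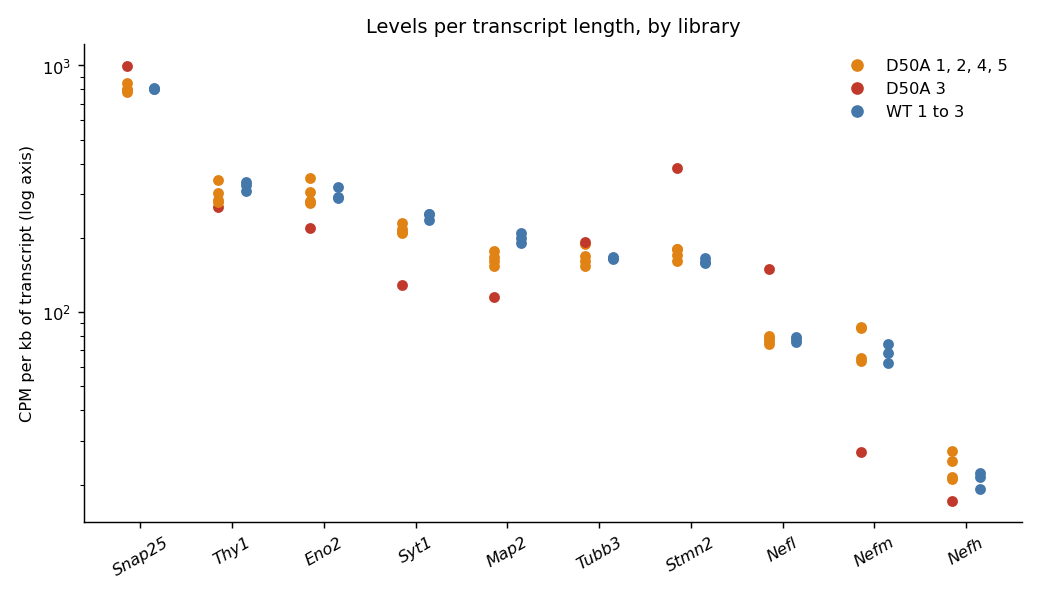
CPM per kb of transcript (log axis) of each gene, ordered by the WT mean, with D50A 3 in red. Neighbours whose WT ranges overlap are Thy1 with Eno2 and Tubb3 with Stmn2, and Stmn2 lies above Syt1 and Map2 in D50A 3.

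The genes whose levels ran most like the mean of the triplet, or like the mean of the other 7 genes, are given here. The measure is Pearson r of log2 CPM over 12472 genes with a mean log2 CPM above 2. Over 8 libraries each mean joins genes that ran opposite ways, with r of -0.91 for Nefl and Nefm and -0.96 for Syt1 and Stmn2. Others ran together, with r of 0.86 for Nefm and Nefh and 0.96 for Syt1 and Map2. A match to the mean therefore need not hold for a single gene. Against the mean of the triplet over 8 libraries they were Tmco6 (0.961), Hykk (0.955), Tha1 (0.946), Kctd21 (0.942) and Irf3 (0.937). Over 7 libraries without D50A 3 they were Tbc1d1 (0.986), Zdhhc14 (0.986), Dock5 (0.983), Nudc (0.978) and Tnip1 (0.969), so the 2 lists of 5 shared no gene. Against the mean of the other 7 genes they were Fhad1 (0.982), Myh7 (0.947), Krt9 (0.944), Moxd1 (0.937) and Gm11549 (0.935) over 8 libraries. Over 7 libraries they included Huwe1 (0.992), D430041D05Rik (0.991), Syt17 (0.988) and Snap91 (0.986), again with no gene in common. Points share group and library, and D50A 3 decides the first list of each pair.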

How the data were processed

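The deposited file is a table of raw counts, not normalized by the authors, of 25815 genes in 8 libraries. The build mm10 and the tools STAR 2.5, HTSeq 0.6.1, CASAVA 1.8 and DESeq2 2 are named, without order, in the submitters' processing notes. The strand setting and annotation release were not given in the sources used here. Groups came from the genotype label. Library pairs within a group differed by a chi-square per degree of freedom of 3.18 to 419.9, so none were copies.

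Counts were tested with edgeR 4.0.16 in R 4.3.3 (filterByExpr, TMM, quasi-likelihood, Benjamini-Hochberg over 16810 genes, threshold 0.05), fitted on all 8 libraries with no covariate. The SE is the size of the log2 fold change over the square root of F. CPM were scaled by TMM, with a prior count of 2 in log2 CPM. Alternatives were DESeq2 1.42.0 (335 genes with no adjusted p), limma 3.58.1 voom, other scalings and filters, and libraries left out. Lengths, positions and ends came from GENCODE M21, which matched 25484 genes. Transcript lengths and ends were those of the transcript with the longest coding sequence. Named beside the 10 genes were, from each list, the 3 others with the smallest unadjusted p (for lists of other cells and regions, at most 1 is printed), Eno1, and the 5 genes most like in pattern (1 of them is not reported here). The members, the lists and the fit without D50A 1 and D50A 3 were chosen with earlier results of these data known.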

Additional observations from a re-analysis of the deposited data

Results flagged for a closer look

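Within the 5 D50A libraries, a gap test (Dixon's, critical value 0.71) was run on 30 printed genes, and 12 of them, 3 of the 10 members among them, had 1 library far from the rest. In every case it was D50A 3. Chance flags about 1 group in 20, but over all 16810 genes tested the same gap was found for 40.1%, and for 39.0% with D50A 3 as the distant library, so the members' count is near that of genes at large. Of the members, Syt1 was low at 621 CPM, and Nefl at 505 CPM and Stmn2 at 796 CPM were high. Of the other genes, Ina (55.3 CPM) and Kif5c (617 CPM) were low. Stmn3 (1841 CPM), Nsg1 (548 CPM), Scg5 (641 CPM), Spp1 (31.3 CPM), Pvalb (766 CPM), Sncg (24.5 CPM) and Mobp (4300 CPM) were high.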

How the results depend on the processing

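Over all genes tested, 0 were called by edgeR with all libraries, 40 by DESeq2, 517 by limma-voom and 1065 without D50A 1 and D50A 3. With each library left out in turn the count ran from 0 to 26, the 26 being without D50A 1. Of the members, 0 were called in the main analysis, at a threshold of 0.1 and with any 1 library left out, and 1 (Map2) was called by limma-voom and 1 without D50A 1 and D50A 3; the cause was not tested. Signs of small log2 fold changes turned as follows. Limma-voom gave -0.03 for Tubb3, 0.00 for Nefl, 0.06 for Nefm and -0.07 for Eno1. Without D50A 1 and D50A 3 the values were -0.02 for Tubb3, 0.09 for Nefm, 0.01 for Ina and -0.07 for Eno1, and total counts as library sizes gave -0.02 for Eno1. With each library left out in turn, the range was -0.17 to 0.15 for Nefm, -0.14 to 0.02 for Eno2, -0.24 to 0.06 for Ina, -0.03 to 0.18 for Eno3 and -0.01 to 0.07 for Eno1. Map2 stayed between -0.42 and -0.22 and Syt1 between -0.36 and -0.15 over 17 alternatives each. No paired analysis was possible because the labels give no replicate numbers shared between the groups. The lowest count of a member in a library was 743.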
